A study of Mus musculus with 4 samples.

Results

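*Mt1*, *Mt2* and *Mt4* encode metallothioneins, small proteins rich in cysteine that bind zinc and copper. They were followed as the rows of that name, 3 of the 24378 gene rows in each of the 4 count tables, in the 161 of 384 wells that held at least 2000 unique molecular identifiers (UMIs, which tag single cDNA molecules) on genes. *Mt1* and *Mt2* are expressed in most tissues and are known to be induced by metals through the transcription factor MTF1, and also by glucocorticoids and oxidative stress. *Mt4* is known as the member of stratified squamous epithelia, where it is expressed as keratinocytes differentiate. *Mt3*, the remaining member, is known mainly from the brain.

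The cells came from the dorsal interfollicular epidermis of 2 female Ivl-CreERT2/R26-tdTomato mice at postnatal day 57. Both were given tamoxifen intraperitoneally 2 days earlier, at 10 µg/g by the labels (the study's methods state a higher dose). Traced and non-traced cells thus came from mice of the same genotype and treatment. In this strain, Cre recombinase driven by the promoter of Involucrin (*Ivl*), a gene of differentiating keratinocytes, switches on the red protein tdTomato after tamoxifen. Live basal cells, which stained for CD49f and LY6A but not for CD34 or Sytox blue, were separated into traced (Tomato-plus, Tom+) and non-traced (Tomato-minus, Tom-) populations and captured on Fluidigm C1 chips, with 1 Tom+ and 1 Tom- library under each of 2 run tags, called runs 1 and 2. The labels do not say which mouse gave which library, so p-values between the sorts measure the spread between libraries, which may be technical. Where classes of cells from the same library are compared (below), p-values measure how that difference varied between libraries.

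The Tom+ libraries held 35 and 58 cells and the Tom- libraries 20 and 48 (runs 1 and 2), with 157281, 305407, 81630 and 184578 UMIs in the same order. Basal markers, keratins and integrins among them, were found in nearly all cells, 160 of 161 having at least 3 of 7. Markers of differentiating interfollicular epidermis were *Krt1*, *Krt10*, *Krtdap*, *Sbsn* and *Ptgs1*. At least 3 of these 5 were found in 33 and 57 Tom+ and in 4 and 5 Tom- cells (runs 1 and 2). At least 3 of 7 infundibulum and upper follicle markers were found in 4, 22, 6 and 14 cells of Tom+ runs 1 and 2 and Tom- runs 1 and 2, at a summed level of 610 to 2092 CPM (UMIs on a gene per 1000000 UMIs on all genes), with none of the 7 at 0. T cell markers reached 3 in 3 cells and Langerhans cell markers in 2, whereas no cell had 3 markers of bulge, sebaceous gland, melanocytes, fibroblasts or endothelium. The tdTomato transcript was found in 45.7% (run 1) and 50.0% (run 2) of the traced cells, against 0% and 6.25% of the non-traced.

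The 3 genes lie on one strand of chromosome 8 (GRCm38, GENCODE M21), within 43.1 kb in the order *Mt4*, *Mt3*, *Mt2* and *Mt1*, each with 3 exons. *Mt4* (ENSMUSG00000031757.7) spans chr8:94137197-94139031, *Mt2* (ENSMUSG00000031762.7) spans chr8:94172664-94173568 and *Mt1* (ENSMUSG00000031765.8) spans chr8:94179082-94180327. Only 5513 bases separate *Mt2* from *Mt1*. An antisense gene, *Gm45774*, overlaps *Mt2* on the other strand. It was not analysed here, and whether the counting used strand is not given in the sources used here, so reads from both strands at *Mt2* could not be told apart.

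The coding sequences are shown to make the kinship of the 3 members visible. They are the spliced GENCODE M21 coding sequences, read 5′ to 3′ on the plus strand between chr8:94179311-94180193 (*Mt1*), chr8:94172848-94173427 (*Mt2*) and chr8:94137242-94138867 (*Mt4*), with the codons TGC and TGT, which encode cysteine, in capitals.
Mt1: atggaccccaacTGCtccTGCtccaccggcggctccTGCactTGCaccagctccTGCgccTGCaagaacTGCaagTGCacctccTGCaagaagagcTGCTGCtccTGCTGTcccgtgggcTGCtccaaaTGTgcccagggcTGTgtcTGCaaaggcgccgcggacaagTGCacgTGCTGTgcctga
Mt2: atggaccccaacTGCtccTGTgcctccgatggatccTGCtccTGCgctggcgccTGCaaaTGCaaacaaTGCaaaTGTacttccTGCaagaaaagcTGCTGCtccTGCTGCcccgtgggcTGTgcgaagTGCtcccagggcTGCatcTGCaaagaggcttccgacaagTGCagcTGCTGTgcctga
Mt4: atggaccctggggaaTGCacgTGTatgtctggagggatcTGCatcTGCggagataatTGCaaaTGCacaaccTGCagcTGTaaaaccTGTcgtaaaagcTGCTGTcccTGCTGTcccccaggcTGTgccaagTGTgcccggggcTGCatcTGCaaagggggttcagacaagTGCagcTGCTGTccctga
Each sequence holds 20 cysteine codons, of 61 codons in *Mt1* and *Mt2* and 62 in *Mt4* (stop codon not counted). TGT was used for 4 of the 20 in *Mt1* and *Mt2* and for 8 in *Mt4*. In a global alignment, *Mt1* and *Mt2* were identical at 79.6% of positions, *Mt2* and *Mt4* at 73.8% and *Mt1* and *Mt4* at 66.8%. The longest run of bases shared by the *Mt1* and *Mt2* transcripts was 20, and by *Mt2* and *Mt4* 18. The read length and the handling of multiply aligned reads are not given in the sources used here, so a part of the reads may have been split between these paralogues.

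Because the members did not vary alike (below), the 250 bases before each RefSeq start (GRCm38.p6, plus strand) are shown as well, with the core of the metal response element, the site bound by MTF1, in capitals. It was searched as TGCACNC and TGCGCNC on both strands.
Mt1, chr8:94178839-94179088: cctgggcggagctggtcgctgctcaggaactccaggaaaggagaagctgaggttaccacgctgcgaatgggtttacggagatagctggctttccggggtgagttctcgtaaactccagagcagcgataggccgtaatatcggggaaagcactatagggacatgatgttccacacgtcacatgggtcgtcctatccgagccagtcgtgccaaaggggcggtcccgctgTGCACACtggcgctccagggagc
Mt2, chr8:94172368-94172617: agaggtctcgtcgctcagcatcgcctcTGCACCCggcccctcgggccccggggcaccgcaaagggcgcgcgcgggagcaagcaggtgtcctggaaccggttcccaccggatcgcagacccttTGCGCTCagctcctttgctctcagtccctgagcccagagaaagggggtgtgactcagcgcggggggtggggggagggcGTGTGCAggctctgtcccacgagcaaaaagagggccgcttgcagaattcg
Mt4, chr8:94136954-94137203: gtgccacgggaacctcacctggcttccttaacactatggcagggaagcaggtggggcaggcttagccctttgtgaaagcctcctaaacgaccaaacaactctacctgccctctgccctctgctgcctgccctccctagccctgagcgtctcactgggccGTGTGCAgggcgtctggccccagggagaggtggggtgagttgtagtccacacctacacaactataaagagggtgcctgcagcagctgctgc
The window held 1 match in *Mt1*, 3 in *Mt2* and 1 in *Mt4*. Of 32851 such windows in the RefSeq table, 21.4% held at least 1 match and 1.26% at least 3. *Mt2* also held TGANTCA, the motif of AP-1, and TGACNNNGC, the antioxidant response core, in 1 overlapping match (6.75% and 10.2% of all windows), and neither was found in the windows of *Mt1* and *Mt4*. In the GENCODE transcripts the letters TATAAA begin at base 129 of *Mt1* and base 90 of *Mt2*, downstream of these windows. The stretch next to that box was therefore not searched in *Mt1* and *Mt2*. The *Mt4* window itself holds TATAAA, so the windows do not cover like stretches. Their match counts cannot be compared between the genes.

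To compare cells of unequal depth, each cell was thinned at random to 2000 UMIs, and levels below are UMIs per cell on this scale unless CPM is named. *Mt1* was found in nearly every sorted cell: the share was 97.1% (Tom+ run 1), 98.3% (Tom+ run 2), 95% (Tom- run 1) and 97.9% (Tom- run 2). Its median was 4 and 10.5 UMIs in Tom+ and 8.5 and 10.5 in Tom- cells, and single cells ranged from 0 to 48. *Mt2* was found in 91.4%, 93.1%, 100% and 97.9% of cells in the same order, with medians of 4, 8, 9 and 11.5 UMIs and a range of 0 to 41. Tom+ run 1 thus had the lowest median of both genes. *Mt4* was found in 51.4%, 60.3%, 20.0% and 6.25% of cells, with a highest cell of 17 UMIs. Together the 3 genes made up 0.811% to 1.33% of all UMIs of a library. *Mt3* had 3 UMIs in all, in 3 cells of Tom+ run 2.

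**Figure D1:**
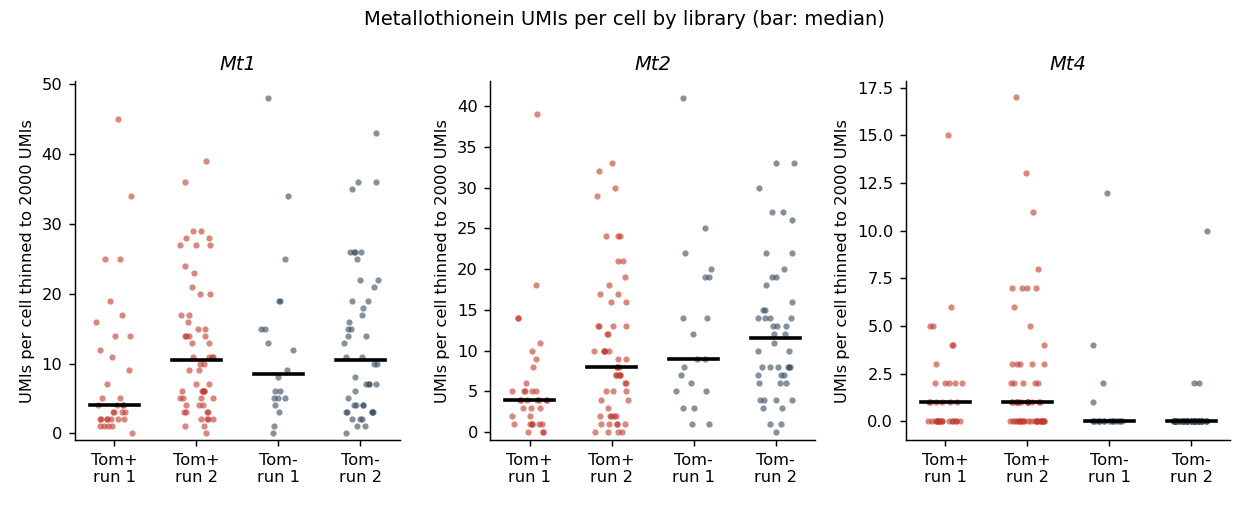
UMIs of *Mt1*, *Mt2* and *Mt4* per cell after thinning to 2000 UMIs (y axes, a separate linear scale for each gene) in the 4 libraries (x axis), with 1 point per cell and a black bar at the median. The medians of *Mt1* and *Mt2* lie between 4 and 11.5 UMIs in every library, whereas those of *Mt4* are 1 in both Tom+ libraries and 0 in both Tom- libraries.

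Whether traced and non-traced cells differ was tested on UMIs summed per library. *Mt4* was at 935 and 1251 CPM in Tom+ runs 1 and 2 and at 588 and 200.5 in Tom- runs 1 and 2. In Tom+ cells *Mt4* was 2.97-fold higher (log2 fold change 1.57, SE 0.36, edgeR quasi-likelihood test, adjusted p = 0.0345). Of all 3070 genes tested, 1.24% were called, 0.847% as higher and 0.391% as lower. Within run 1 the log2 ratio was 0.67 and within run 2 it was 2.64. The call rested on both libraries of run 2: without Tom+ run 2 the log2 fold change was 1.31 (adjusted p = 0.119), and without Tom- run 2 it was 0.98 (adjusted p = 0.311). It was also lost when cells carrying 3 or more markers of other cell types, mostly of the infundibulum, were left out (1.30, adjusted p = 0.279).

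*Mt2* was at 2861 and 4676 CPM in Tom+ and at 5733 and 6209 in Tom- libraries. It was lower in Tom+, at a log2 fold change of -0.69 (SE 0.25). This did not pass the adjustment over all genes (unadjusted p = 0.0118, edgeR adjusted p = 0.268). *Mt1* was at 4311 and 6231 CPM in Tom+ and at 5574 and 6875 in Tom- libraries. Here the sorts overlapped, and the log2 fold change was -0.28 (SE 0.24, edgeR adjusted p = 0.856), which leaves a range of -0.76 to 0.21 at 2 SE. Within runs 1 and 2 the log2 ratios were -0.37 and -0.14 for *Mt1* and -1.0 and -0.41 for *Mt2*.

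The make-up of the family, taken on full counts without thinning, differed accordingly. *Mt4* supplied 11.5% (95% Clopper-Pearson interval 9.83 to 13.4) and 10.3% (9.33 to 11.3) of the UMIs of the 3 genes in Tom+ libraries and 4.94% (3.67 to 6.50) and 1.51% (1.06 to 2.07) in Tom- libraries. The intervals cover counting error only. The mean difference of 7.68 percentage points had an exact two-sided permutation p of 0.333, the smallest that 2 libraries against 2 allow. *Mt2* supplied 39.9% and 42.9% of the *Mt1* and *Mt2* UMIs in Tom+ and 50.7% and 47.5% in Tom- libraries. This mean difference, -7.70 points, had the same exact permutation p of 0.333. By the same full counts, more cells had *Mt1* above *Mt2* than the reverse in Tom+ libraries (24 against 8 and 39 against 11). Fewer did in Tom- libraries (6 against 12 and 21 against 26).

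The sorts also differed in their share of cells with *Krt10*, the keratin of the first differentiated layers. Cells with at least 6 thinned *Krt10* UMIs, called *Krt10*-positive, accounted for 71.4% and 63.8% of cells in the Tom+ libraries, against 15% and 8.33% in the Tom- libraries. The remaining cells, called *Krt10*-negative, comprise cells with 0 and cells with 1 to 5 *Krt10* UMIs. In Tom+ libraries they include cells with at least 3 differentiating markers, since 33 and 57 cells had these against 25 and 37 *Krt10*-positive cells. To ask how the metallothioneins differ between the classes, UMIs were summed per library and class and tested with the library as a block. *Krt10* sets the classes and is no result here.

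*Mt4* was at 1306, 1725, 2616 and 1829 CPM in *Krt10*-positive cells of Tom+ runs 1 and 2 and Tom- runs 1 and 2. In *Krt10*-negative cells of the same libraries it was at 191, 162, 61.7 and 47.4, from 10, 15, 4 and 8 UMIs. Between the classes *Mt4* was 16-fold higher in *Krt10*-positive cells (log2 fold change 4.00, SE 0.32, edgeR adjusted p = 8.46e-10). The size depended on how the classes were drawn: over 20 other seeds of the thinning, which redraw them, the log2 fold change was 2.92 to 3.97, with a median of 3.50, and it was 2.27 with a border of 12 *Krt10* UMIs, 2.48 among cells with at least 5000 UMIs and 3.13 in the Tom+ libraries alone. The call held in each of these. Of all 1166 genes tested, 9.52% were called, 4.80% as higher and 4.72% as lower. In the 37 cells of Tom- run 2 with no *Krt10* UMI, *Mt4* was found in 0 cells, which allows a share of up to 8.11% at 2000 UMIs, while at full counts 2 of these 37 cells had an *Mt4* UMI. In Tom- run 1 it was found in 1 of 8 such cells after thinning. All 6 cells with at least 10 *Mt4* UMIs were *Krt10*-positive, and they came from all 4 libraries.

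*Mt1* went the other way. It was at 3260, 4865, 3151 and 6308 CPM in *Krt10*-positive and at 6415, 9367, 6203 and 6928 in *Krt10*-negative cells of the 4 libraries, and was lower in the positive class of each. The log2 fold change was -0.81 (SE 0.16, edgeR adjusted p = 0.000993), or 1.75-fold lower. In Tom- run 2, with 4 positive cells, the log2 ratio was only -0.14, against -0.95 to -0.98 in the other 3 libraries. Without Tom+ run 1 the adjusted p was 0.0565.

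*Mt2* was at 1878, 3342, 3983 and 3911 CPM in *Krt10*-positive and at 4831, 7737, 6187 and 6425 in *Krt10*-negative cells. It was 2.07-fold lower in positive cells (log2 fold change -1.05, SE 0.17, edgeR adjusted p = 4.34e-05). The 2 stress-type members and *Mt4* therefore differed between the classes in opposite directions. Both falls rested on where the class border lay: with a border of 1 *Krt10* UMI the log2 fold changes were -0.04 for *Mt1* and 0.01 for *Mt2*, with adjusted p of 0.962 and 0.987, and among the 51 cells with at least 5000 UMIs they were -0.32 and -0.81, with adjusted p of 0.876 and 0.497. With a border of 12 UMIs both passed, at -1.15 for *Mt1* and -1.32 for *Mt2*.

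**Figure D2:**
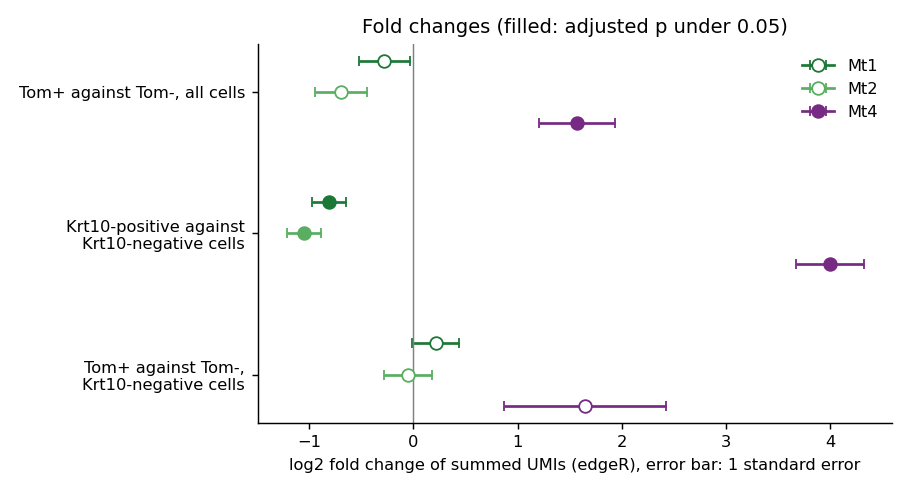
Log2 fold changes of UMIs summed per library, or per library and class (x axis), for 3 comparisons (y axis) and the 3 genes (colours), with 1 SE as error bars and filled points where the edgeR adjusted p is under 0.05. *Mt4* lies at 1.57, 4.00 and 1.65 from top to bottom, whereas *Mt1* and *Mt2* lie below 0 in the first 2 comparisons and within 0.25 of 0 in the last.

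Cells with 1 to 5 *Krt10* UMIs change class between the borders of 1 and 6. In Tom+ libraries these had the highest mean levels, 21.0 and 19.3 UMIs of *Mt1* and 13.7 and 17.3 of *Mt2* in runs 1 and 2 (6 and 19 cells). *Krt10*-positive Tom+ cells had 6.44 and 8.84 UMIs of *Mt1* and 4.2 and 7.05 of *Mt2*. Tom+ cells with no *Krt10* UMI were few, 4 and 2 cells, with 4.25 and 13.5 UMIs of *Mt1* and 3.50 and 4.00 of *Mt2*. In Tom- libraries the cells with no *Krt10* UMI had the highest means, 18.1 and 13.8 UMIs of *Mt1* and 13.6 and 13.9 of *Mt2* (8 and 37 cells). Medians were also highest there for *Mt1* in run 1 and *Mt2* in run 2. In run 2 the *Mt1* medians were 10 with no, 11 with 1 to 5 and 13.5 with at least 6 *Krt10* UMIs. In run 1 the *Mt2* median was 9 both with no and with 1 to 5 *Krt10* UMIs. Tom- cells with 1 to 5 *Krt10* UMIs had 10.0 and 9.71 UMIs of *Mt1* and 12.1 and 7.71 of *Mt2*. The 3 and 4 *Krt10*-positive Tom- cells had 5.67 and 13.0 UMIs of *Mt1* and 8.33 and 8.75 of *Mt2*. By mean, the lowest class was the positive one in run 1 and that with 1 to 5 UMIs in run 2. The summed level of *Mt1* and *Mt2* in Tom+ cells with 1 to 5 *Krt10* UMIs ranged from 4 to 84 (run 1) and 11 to 68 (run 2), so single cells overlapped widely with the other classes. This order was seen in the data and was not tested.

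**Figure D3:**
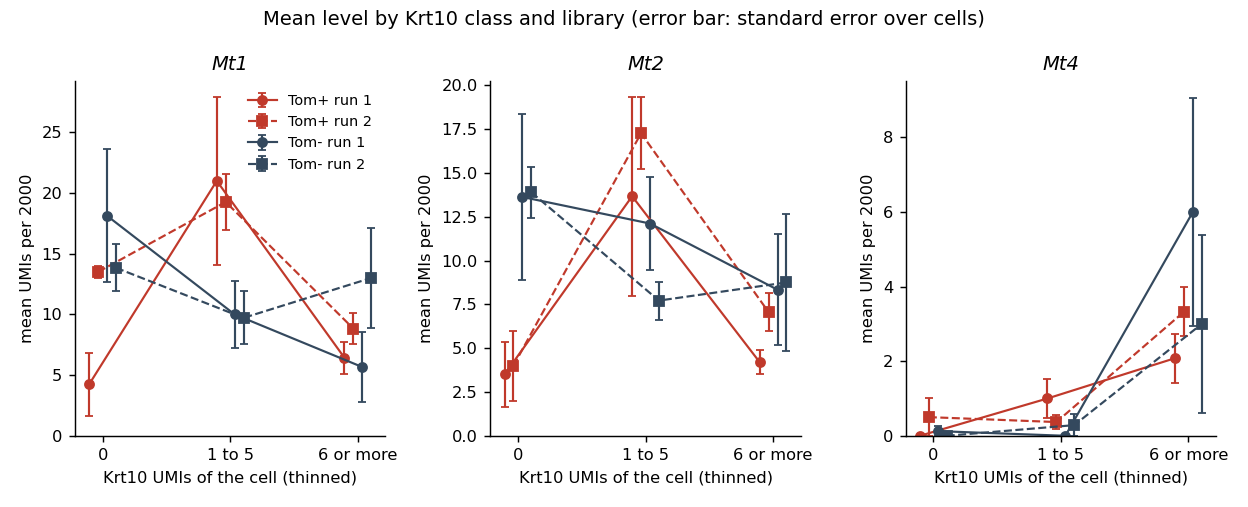
Mean UMIs per cell after thinning to 2000 UMIs (y axes, a separate scale for each gene) by *Krt10* UMIs of the cell (x axis) in each library (colours for sort, marker and line type for run), with the standard error over cells, which are not replicates. *Mt1* and *Mt2* peak at 1 to 5 *Krt10* UMIs in both Tom+ libraries (21.0 and 19.3 UMIs of *Mt1*) and *Mt4* at 6 or more in all 4 libraries.

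Among *Krt10*-negative cells alone, the sorts were compared again. *Mt4* was at 191 and 162 CPM in Tom+ and at 61.7 and 47.4 in Tom- cells, with 25 against 12 UMIs behind these values. The log2 fold change of 1.65 (SE 0.78) did not pass (unadjusted p = 0.0385, edgeR adjusted p = 0.818). This value moved with the draw of the negative class: over 20 other seeds it ranged from 0.34 to 3.26, and it passed in 5 of them (lowest adjusted p = 5.73e-05). *Mt1* was at 6415 and 9367 against 6203 and 6928 (log2 fold change 0.21, SE 0.22) and *Mt2* at 4831 and 7737 against 6187 and 6425 (-0.05, SE 0.23). Both had an edgeR adjusted p of 0.998, with ranges at 2 SE of -0.24 to 0.66 and -0.51 to 0.40. Of all 1296 genes tested, 0.231% were called, all of them higher in Tom+ and *Krt10* among them. In cells with no *Krt10* UMI, of which only 6 were Tom+, the log2 fold change was -0.89 for *Mt1* and -1.19 for *Mt2*, neither passing, and *Mt4* was too low to be tested.

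The class difference itself was compared between the sorts. Its log2 value per library was 2.77 and 3.41 in Tom+ and 5.41 and 5.27 in Tom- for *Mt4*, and the difference of -2.07 (SE 0.59) did not pass (unadjusted p = 0.00232, edgeR adjusted p = 0.483). For *Mt1* and *Mt2* the differences were -0.35 and -0.52, with adjusted p of 0.961 and 0.929. In this comparison 0.172% of 1166 genes were called. The Tom- values rest on 3 and 4 *Krt10*-positive cells and, for *Mt4*, on 4 and 8 UMIs in *Krt10*-negative cells.

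Within the family, on full counts, *Mt4* supplied 20.3%, 17.4%, 26.8% and 15.2% of the UMIs of the 3 genes in *Krt10*-positive cells of the 4 libraries. In *Krt10*-negative cells it supplied 1.67%, 0.938%, 0.496% and 0.354%. The share was higher in positive cells in 4 of 4 libraries, by 19.0 points on average (exact two-sided sign-flip permutation p = 0.125, the smallest that 4 libraries allow). The *Mt2* share of *Mt1* and *Mt2* differed by -6.40, -4.51, 5.90 and -9.84 points in the 4 libraries, with an exact sign-flip permutation p of 0.375. It was lower in positive cells in 3 of 4 libraries.

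Cell by cell, 160 of 161 cells had *Mt1* or *Mt2*. All 60 cells with an *Mt4* UMI had *Mt1* or *Mt2* as well, which is near that share over all cells. *Mt4* exceeded the sum of the other 2 in 7 cells, 6 of them Tom+. Of the 60 cells, 50 were *Krt10*-positive, 8 had 1 to 5 *Krt10* UMIs and 2 had none, whereas 19 of the 69 *Krt10*-positive cells had no *Mt4* UMI. Among the 16 cells with the most *Mt1* and *Mt2* UMIs, at least 50 each, 9 had no *Krt10* UMI, 6 had 1 to 5 and 1 was *Krt10*-positive, and 3 had an *Mt4* UMI. In the highest of them the 2 genes took 4.45% of the 2000 thinned UMIs. Of these 16 cells 7 were Tom+ and 9 Tom-. With each library split at its median of summed *Mt1* and *Mt2*, *Mt4* was found in 34.2% of cells above and 40.0% at or below. The shares were 69.2% against 40.9% in Tom+ run 1 and 48.3% against 72.4% in Tom+ run 2. In Tom- run 1 both were 20.0%, and in Tom- run 2 they were 4.17% against 8.33%.

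**Figure D4:**
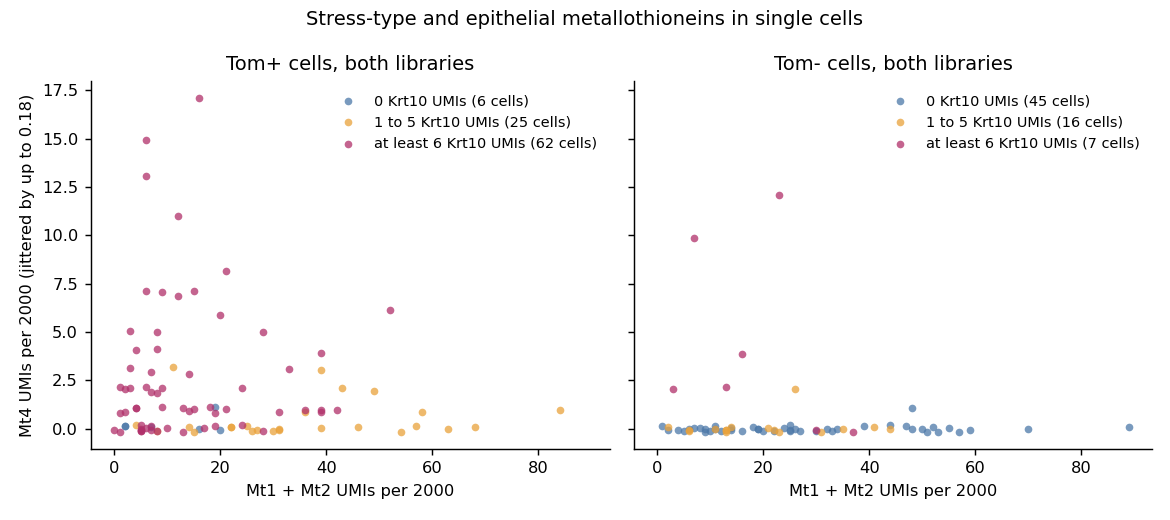
*Mt4* UMIs (y axis, jittered by up to 0.18) against the sum of *Mt1* and *Mt2* UMIs (x axis) per cell, both after thinning to 2000 UMIs, for Tom+ (left) and Tom- cells (right), coloured by *Krt10* class. Cells with at least 10 *Mt4* UMIs, 6 in all, are *Krt10*-positive, and the cells with 50 or more *Mt1* and *Mt2* UMIs mostly hold few or no *Mt4* UMIs. With each library split at its median of *Mt1* and *Mt2*, *Mt4* is found in 34.2% of cells above and 40.0% at or below.

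The correlations that follow are descriptions over single cells of shared libraries and equal thinned depth, on ln(UMI + 1), after the mean of each library was removed (161 cells). *Mt1* and *Mt2* varied together, with a Pearson r of 0.73 and of 0.70 to 0.79 within single libraries. Neither followed *Mt4*, with r of -0.04 for *Mt1* and -0.18 for *Mt2*, and the sign differed between libraries. *Mt4* went with *Krt10* (0.50) and against *Krt14* (-0.54), the keratin of basal cells.

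Among 1105 genes found in at least 20% of cells, those most like *Mt1* were *Mt2*, *Sfn* (0.48), which encodes the 14-3-3 sigma protein of epithelia, and *Atf3* (0.46), a stress-induced transcription factor. Those most like *Mt2* were *Mt1*, *Dnajb1* (0.39), a heat shock co-chaperone, and *Atf3* (0.37). *Mt4* was most like *Krtdap* (0.53), which encodes a keratinocyte differentiation-associated protein, *Krt10* (0.50) and *Prdx5* (0.42), a peroxiredoxin. With each library left out in turn, at least 2 of the 3 genes were found again for each member.

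The summed level of 16 genes known to be induced during tissue dissociation and as immediate early genes (*Fos*, *Jun*, *Atf3*, heat shock genes and others) correlated at 0.45 with *Mt1*, 0.37 with *Mt2* and 0.07 with *Mt4*. It was at 13752 and 13962 CPM in Tom+ and at 15325 and 16882 in Tom- libraries, lower in Tom+ as *Mt2* was. Its part in the level of *Mt1* and *Mt2* was not tested. The cells had been held in trypsin for the isolation of epidermis. The 12 genes of a glucocorticoid response list correlated at 0.26 with *Mt1*, 0.29 with *Mt2* and 0.08 with *Mt4*. For 14 targets and regulators of the oxidative stress factor NRF2 the values were 0.17, 0.08 and 0.06, and for 20 zinc transport and metal response genes -0.07, -0.05 and -0.04, at 1 UMI in the median cell of each library. A list of basal epidermal genes correlated at 0.34 with *Mt1*, 0.35 with *Mt2* and -0.39 with *Mt4*. For a list of early differentiation genes the values were -0.26, -0.32 and 0.54. The basal list thus lay near the dissociation list for *Mt2*. Total UMIs of the cell (ln) correlated at 0.08, -0.01 and 0.24 with *Mt1*, *Mt2* and *Mt4*.

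**Figure D5:**
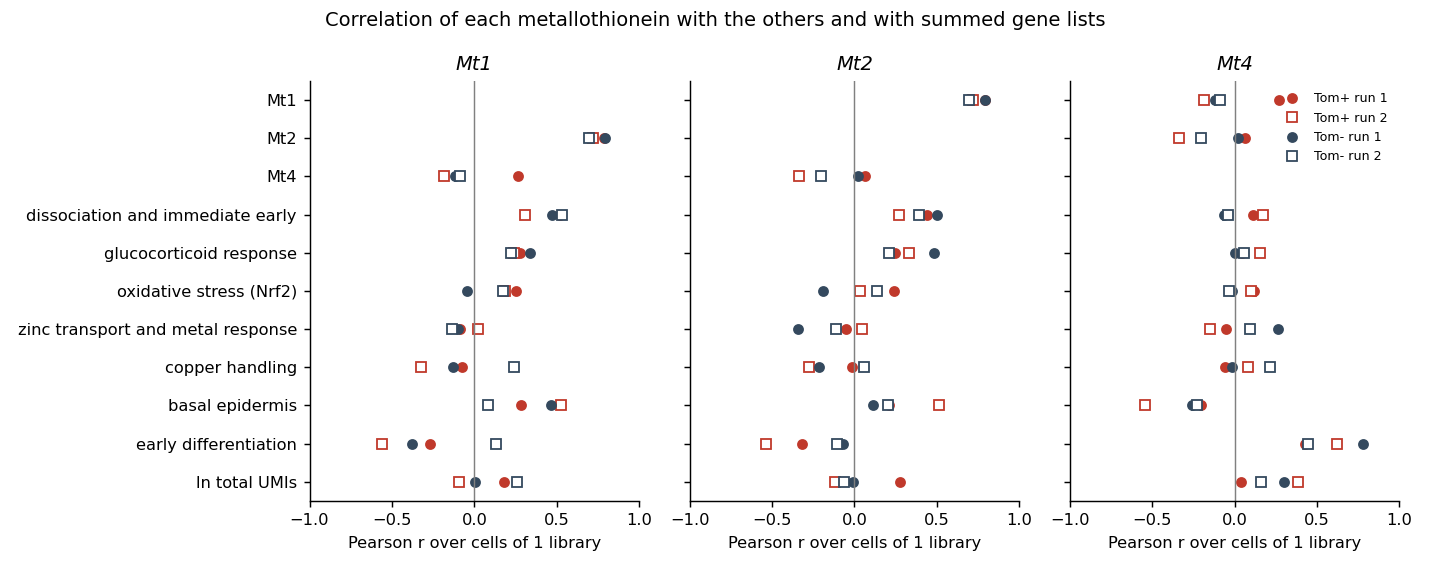
Pearson r over the cells of 1 library (x axes) between each metallothionein (panels) and the other members, summed gene lists and total UMIs (y axis), with 1 point per library (colour for sort, filled for run 1 and open for run 2). *Mt1* and *Mt2* lie at 0.70 to 0.79 with each other in all 4 libraries, and *Mt4* lies above 0 with early differentiation genes in all 4.

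Other genes of metal handling and stress were largely too low or did not pass. Between the sorts, 3 of 20 zinc genes could be tested and 0 passed, with *Zfand5*, a zinc finger protein gene, at a log2 fold change of -0.62 (edgeR adjusted p = 0.711) and the zinc importer gene *Slc39a1* at -0.40 (adjusted p = 0.944). Of 9 copper genes, 6 were tested and 0 passed, with *Slc31a2* at 0.27 and the copper chaperone gene *Cox17* at 0.28. Of the glucocorticoid list 8 were tested and 0 passed, with the phosphatase gene *Dusp1* at -0.80 (adjusted p = 0.154) and *Errfi1* at -0.98 (adjusted p = 0.501). The oxidative stress list had 0 of 4 tested, with catalase (*Cat*) at 1.16 (adjusted p = 0.369) and *Prdx1* at 0.17. Of the dissociation and immediate early list, 1 of 16 passed, *Ier3*, lower in Tom+ at -1.48 (adjusted p = 0.0469). The lists' median log2 fold changes were -0.40, 0.11, -0.15, 0.25 and -0.23 in this order, against -0.01 over all genes tested.

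Epidermal genes moved with *Mt4*. Between the sorts, 8 of 9 tested early differentiation genes rose in Tom+ (median log2 fold change 2.23), led by *Krtdap* at 2.95, *Sbsn* at 2.77 and *Ly6g6c* at 3.67, and 0 of 10 basal genes passed (median -0.63). *Trp63*, the basal transcription factor p63, was at -1.15 (edgeR adjusted p = 0.0894) and *Krt14* at -0.81 (adjusted p = 0.0972). Between the *Krt10* classes, 8 of 8 early differentiation genes rose (median 2.87), *Krtdap* by 5.58, *Sbsn* by 3.30 and *Dmkn* by 1.58 on the log2 scale. Of 9 basal genes, 3 fell in the positive class: *Krt14* fell by 3.41, *Krt5* fell by 1.15 and *Col17a1*, a hemidesmosome collagen gene, fell by 1.19. *Mt1* and *Mt2*, at -0.81 and -1.05, lay beside the median of the basal list (-1.04).

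Between the classes the stress lists held few calls. Of 14 dissociation and immediate early genes tested, *Hspa1b*, a heat shock protein gene, rose by 1.86 and *Ier3* fell by 2.20, and the list's median was -0.14 against -0.04 over all genes. None of 4 glucocorticoid, 3 copper, 1 oxidative stress and 1 zinc genes tested passed, with *Dusp1* at -0.13, *Klf9* at 0.18, *Cox17* at 0.66, *Atox1* at -0.19, *Prdx1* at 0.02 and *Zfand5* at 0.67. Of the genes most like the members across cells, *Prdx5* rose with the positive class (1.65, edgeR adjusted p = 0.000252), whereas *Sfn* (-0.19), *Atf3* (-0.11) and *Dnajb1* (0.25) did not pass. Among *Krt10*-negative cells, 2 of 5 early differentiation genes other than *Krt10*, which sets the class, were higher in Tom+ (*Krt1* by 3.03 and *Krtdap* by 4.43), and 0 passed of 10 basal, 13 dissociation and immediate early, 5 glucocorticoid, 2 zinc, 2 copper and 1 oxidative stress genes.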

How the data were processed

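Fluidigm C1 libraries of 4 sorted cell samples were made with 5-prime STRT chemistry. The authors deposited whole-number UMI counts, not normalized, for each gene and well. The labels name the builds mm10 and GRCm38, and the aligner and annotation are not given in the sources used here. Spike-in and reporter rows (109 rows, 2.15% of UMIs) were kept out of gene totals. The members, gene lists and tests were chosen with earlier results of these data known.

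Wells with at least 2000 gene UMIs were kept, 169 wells held no gene UMI and 54 held fewer. No doublet caller was run, and no 2 kept cells had identical counts. Cells were thinned once (seed 1), and the *Krt10* classes were set on thinned counts. Full counts were summed per library, or per library and class, and tested with edgeR 4.0.16 in R 4.3.3 (quasi-likelihood test with TMM normalization after filterByExpr, p adjusted by Benjamini-Hochberg over all genes tested, threshold 0.05), a procedure also tested on simulated data. Shares were compared by exact permutation over libraries, with pandas 2.3.3 and scipy 1.17.1. Named are the members, *Mt3*, *Krt10* and *Krt14*, the 3 genes most like each member (Pearson r of library-centred ln(UMI + 1)), and from each list up to 3 genes that passed or, where none did, the 2 with the smallest p. Alternatives were other UMI minima, class borders, seeds, normalizations, filters and tests (DESeq2 1.42.0, limma 3.58.1), a run block and each library left out.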

Additional observations from a re-analysis of the deposited data

Results flagged for a closer look

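Metallothionein UMIs were also found in wells outside the comparisons, the 54 wells with some but fewer than 2000 gene UMIs. These held 149 *Mt1*, 168 *Mt2* and 6 *Mt4* UMIs of 30056 in all, each above the 3 counts that a count of 0 allows. The level of *Mt1* was 4957, that of *Mt2* 5590 and that of *Mt4* 200 CPM in these wells together.

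For 2 genes named beside the members, the *Krt10* class difference was smaller in Tom+ than in Tom- cells by the test of the difference itself: *Krtdap* at a log2 difference of -3.96 (edgeR adjusted p = 0.00332) and *Krt1* at -2.97 (edgeR adjusted p = 0.00486). Both calls rest on 3 and 4 *Krt10*-positive Tom- cells, and 0 genes were called without Tom+ run 1, without Tom+ run 2 or without Tom- run 2. For *Mt4*, at -2.07, the same test did not pass. The negative class also differed between the sorts: among *Krt10*-negative cells *Krtdap* was higher in Tom+ by 4.43 and *Krt1* by 3.03. In Tom+ runs 1 and 2 that class held 6 and 19 cells with 1 to 5 *Krt10* UMIs beside 4 and 2 with none. In Tom- runs 1 and 2 it held 9 and 7 beside 8 and 37.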

How the results depend on the processing

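Of 195 recomputed differences, 173 were the same, in direction and, where tested, in side of the threshold. Of 40 numbers of genes called, 27 stayed within 1.5 times. The 20 other seeds were taken as their median in the edgeR tests and as their mean for shares of cells and mean levels. *Mt4* passed between the *Krt10* classes under all 14 alternatives, at 2.27 to 4.39. Between the sorts, the number of genes called fell from 38 to 8 with a minimum of 5000 UMIs (51 cells) and to 8 without cells carrying 3 or more markers of other cell types. The *Mt4* call was lost with these alternatives (1.52, adjusted p = 0.381, and 1.30) and with the DESeq2 Wald test (1.49, adjusted p = 0.439). Between the classes, 111 calls became 20 with a border of 1 UMI, 35 with only the Tom+ libraries and 29 with a minimum of 5000 UMIs. *Mt1* and *Mt2* were then -0.040 and 0.013 with the border of 1 UMI, and -0.32 and -0.81 with 5000 UMIs. With no *Krt10* UMI allowed, calls between the sorts among negative cells went from 3 to 5 and *Mt1* to -0.89, and over the 20 other seeds 0 to 9 genes were called there. The difference in the share of cells with *Mt1* was 1.25 points in the main analysis. It was -2.40 as the mean of 20 other seeds, -5.00 with a minimum of 5000 UMIs and -1.43 at full counts. The cause of these changes was not tested.

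Without 1 library at a time, between the sorts 27 to 65 genes were called, *Mt1* ranged from -0.59 to 0.018 (above 0 without Tom+ run 1), *Mt2* from -1.11 to -0.33 (the latter without Tom+ run 1) and *Mt4* from 0.98 to 2.36. Between the classes the number called was 59 to 125 and *Mt1* -0.98 to -0.73. Among negative cells *Mt1* was -0.12 to 0.50 (below 0 without Tom+ run 2) and *Mt2* -0.46 to 0.29 (above 0 without Tom+ run 1 and, at 0.07, without Tom- run 2). For the class difference between sorts, 0 to 2 genes were called and *Mt1* was -0.63 to 0.052 (above 0 without Tom- run 2). The *Mt1* share of cells differed by -0.21 to 2.71 points (below 0 without Tom- run 1) and its mean level, ln(UMI + 1), by -0.46 to 0.021 (above 0 without Tom+ run 1). A library alone in its sort was assumed to vary like the other sort. These library values for the class difference, and the class test without cells of other types, were chosen after seeing the data.

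The labels do not say that the run tags pair the libraries. With the run as a block, *Mt2* passed between the sorts (-0.73, adjusted p = 0.000104), *Mt4* still passed (1.64), 116 genes were called between the sorts, and 1 was called among negative cells. The run 1 minus run 2 differences of the sorts correlated at 0.15 across 3070 genes, which are not independent.

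At 2000 UMIs per cell, 1 *Mt4* UMI decides whether a cell is counted, and 3 and 4 *Krt10*-positive Tom- cells limit the precision there.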
